A study of Mus musculus with 19 samples.

Results

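The comparison was between mouse morulae labelled Gabpb1 KO and blastocysts of the same cross not labelled KO, all taken 96 h after insemination. It used 6 of the 19 single-embryo RNA-seq libraries of the series, 3 of each kind, chosen by their genotype and stage labels alone. Both kinds came from in vitro fertilisation of oocytes by sperm from parents that each carried 1 deleted Gabpb1 allele (strain label B6D2F1). The embryos grew in KSOM, a preimplantation culture medium, with 5% CO2 at 37 °C. The KO label (Gabpb1-/-) was given by the submitters to embryos whose own libraries had no reads over the deleted region. The genotype label thus rests on reads of these same libraries. The blastocysts, called sibling blastocysts here, can be wild-type (WT) or heterozygous, and which of these each one is was not used. Since no KO-labelled blastocyst is in the series, stage and genotype cannot be told apart in this comparison.

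For reference, the series also holds 2 morulae of the Gabpb1 cross not labelled KO (sibling morulae), 3 morulae and 3 blastocysts not labelled KO (WT or heterozygous) from the corresponding Alyref+/- cross, and 3 blastocysts from WT parents. The non-KO Alyref-cross embryos give a morula-blastocyst difference that shares no embryo with the KO-labelled comparison. The remaining 2 embryos of the series are morulae labelled Alyref KO. They are in the shared fit and the principal components, but their values are not given here. Below, KO-labelled means labelled Gabpb1 KO, and Alyref-cross embryos means those not labelled KO. The labels name no fertilisation session or sequencing batch, and a batch, if there was one, cannot be told apart from the cross. Each library is 1 embryo, and nothing in the labels says how many parents or sessions the embryos of a group came from. P-values set a difference against the spread between embryos within groups, estimated over all 19 libraries and not from the 6 compared ones alone.

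Gabpb1 encodes the beta subunit of GABP, a transcription factor whose alpha subunit, Gabpa, belongs to the ETS family and binds DNA at sites with a GGAA core. GABP is known for its sites in promoters of broadly expressed genes, many of them for mitochondrial proteins, ribosomal proteins and basic cell functions. In the mouse embryo, the morula compacts and polarises, the outer cells become trophectoderm and pump fluid to form the blastocoel, and the inner cells later separate into epiblast and primitive endoderm.

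Gene counts were 11.2 M, 11.3 M and 14.4 M in the KO-labelled morulae and 11.7 M, 8.64 M and 13.4 M in the sibling blastocysts. Values per embryo are given in replicate order throughout, and an embryo is named by that number (KO-labelled morula 2, blastocyst 3). Levels are CPM (counts scaled to library size, with TMM factors for library composition). Differences are log2 fold changes, KO-labelled morulae minus sibling blastocysts. The standard error (SE) given with them is derived from the test statistic. A gene is called at an adjusted p under 0.05. On the first principal component (39.2% of the variance) the KO-labelled morulae lay at -11.6, -110.5 and -86.1, the sibling blastocysts at 66.4, 16.3 and 63.2, and the sibling morulae at 24.8 and 5.42. The log2 ratio of gene to ERCC spike-in counts was 6.65 ± 0.99 (SD, n = 3) in KO-labelled morulae and 6.39 ± 0.44 (SD, n = 3) in blastocysts (exact two-sided permutation p = 0.8, the smallest possible being 0.1). Y-linked transcripts exceeded 2 counts in 2 of 3 KO-labelled morulae and 1 of 3 sibling blastocysts. Markers of cumulus cells, which surround the oocyte, summed to 2 to 37 counts in KO-labelled morulae and 6 to 43 in blastocysts over 13 genes, and no library had more than 27 counts of any of them. The 8 sperm transcripts summed to 9 to 28 and 16 to 30 counts.

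Counts on the targeted gene did not fall in the embryos labelled KO. Gabpb1 (ENSMUSG00000027361.15, chr2:126627442-126676337, minus strand, GRCm38) was at 78.7, 261 and 151 CPM in the KO-labelled morulae and 48.9, 46.1 and 78.3 CPM in the sibling blastocysts. The lowest KO-labelled embryo stood just above the highest blastocyst, and the sibling morulae were at 94.4 and 83.8 CPM. The fitted difference in Gabpb1 was 1.50 on the log2 scale, with SE 0.35 and adjusted p = 0.0192. Gabpb1 was not called without KO-labelled morula 2 or blastocyst 1 (adjusted p = 0.0753 to 0.0884). Counts summed over a whole gene carry no information on which exons were covered, so they check nothing about the deletion, and the KO status below is that of the label.

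Among 8 tested GABP subunits and related regulators, 3 rose (Gabpb1, Gabpa and Yy1) and none fell (37.5% called against 8.92% of all genes), while 0 to 2 were called with 1 embryo left out, 0 without blastocyst 1. Gabpa, the DNA-binding partner, was at 242, 292 and 499 CPM against 177, 166 and 184 CPM, with no overlap between the groups (log2 fold change 0.97, SE 0.25, adjusted p = 0.0281). Yy1, a zinc-finger regulator of mitochondrial genes, rose from 28.2, 31.6 and 19.7 CPM in blastocysts to 76.1, 62.8 and 43.2 CPM in KO-labelled morulae (log2 fold change 1.20, SE 0.33, adjusted p = 0.0358). Gabpb2, the paralogue of Gabpb1, was at 35.9, 26.5 and 25.7 CPM against 20.2, 26.1 and 21.3 CPM, with overlapping groups (log2 fold change 0.38, SE 0.25, adjusted p = 0.339). Gabpa was not called without KO-labelled morula 3 or blastocyst 1 or 2 or 3 (adjusted p = 0.0599 to 0.123). Yy1 was not called without KO-labelled morula 1 or 2 or blastocyst 1 or 3 (adjusted p = 0.0683 to 0.144). Gm27003 overlaps Gabpb1 and Atp5j overlaps Gabpa on the opposite strand, and counts in such stretches are uncertain without a stated strand setting.

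Of 18410 genes tested, 1643 (8.92%) differed between KO-labelled morulae and sibling blastocysts. In the KO-labelled morulae 728 genes were higher (3.95%) and 915 were lower (4.97%), and 594 and 749 of these were protein-coding. The median log2 fold change was 1.60 among the higher genes and -1.62 among the lower ones. Every KO-labelled morula lay beyond every blastocyst for 673 of the higher and 889 of the lower genes. The same separation held for 26.3% of all genes tested. Of the higher genes, 52 were at or under 3 counts in every blastocyst, and 59 of the lower genes were at or under 3 counts in every KO-labelled morula. When the libraries were scaled to the ERCC spike-in, the median over all genes moved from 0.05 to 0.47 and 87 genes were called, 68 higher and 19 lower. Among the gene lists used, ERCC scaling left 1 call each in the trophectoderm (Hand1), actomyosin (Cnn2), endocytosis and lysosome (Ctsz) and Ifitm and tetraspanin (Ifitm2) lists and none in the others. Fitting the 6 embryos alone gave 13 calls in all. An unadjusted p under 0.05 in edgeR's test was found for 4969 of the 18410 genes (27.0%). DESeq2, an alternative test, called 2985 genes, 1358 higher and 1627 lower.

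The 3 KO-labelled morulae were not equally far from the blastocysts. Over the 1643 called genes, the first KO-labelled morula was the one nearest to the blastocyst mean for 61.7% of genes, the second for 15.2% and the third for 23.1%. Their median distances were 1.17, 1.65 and 1.50 on the log2 scale. Without KO-labelled morula 1, 2712 genes were called, without morula 2, 634, and without morula 3, 799. Leaving out blastocyst 1 gave 564 calls, blastocyst 2 gave 1756 and blastocyst 3 gave 364. Of 91 called genes that the naming rule or the test against the Alyref cross picked, 39 kept their call whichever of the 6 embryos was left out, while 49 lost it without the third blastocyst and 40 without the first. The 39 include Lypla2, Lyrm2, Nubp1, Cnn2, Ndrg1, Mrps21, Mcm3, Vpreb3 and mt-Nd2, and they do not include Hand1, Id2, Eomes, Sparc or Alppl2.

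The non-KO embryos of the Alyref cross gave a morula-blastocyst difference at 96 h without a KO label. There, 2402 genes (13.0%) were called. Within the Gabpb1 cross, the 2 sibling morulae against the 3 sibling blastocysts gave 0 calls among the 18410 genes. The number of calls without a KO label thus differed between the crosses, with unequal numbers of embryos. Whether the size of the stage difference differed between the crosses was not tested. Across the 18410 genes the 2 sets of log2 fold changes, which share no embryo, correlated with Pearson's r 0.522 and Spearman's rho 0.534, a description over genes, which are not independent replicates. Of the 728 genes higher in KO-labelled morulae, 671 (92.2%) had the same sign in the Alyref cross and 320 were called the same way there. Of the 915 lower genes, 824 (90.1%) had the same sign and 295 were called the same way. Over all genes tested, 69.5% had the same sign.

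**Figure D1:**
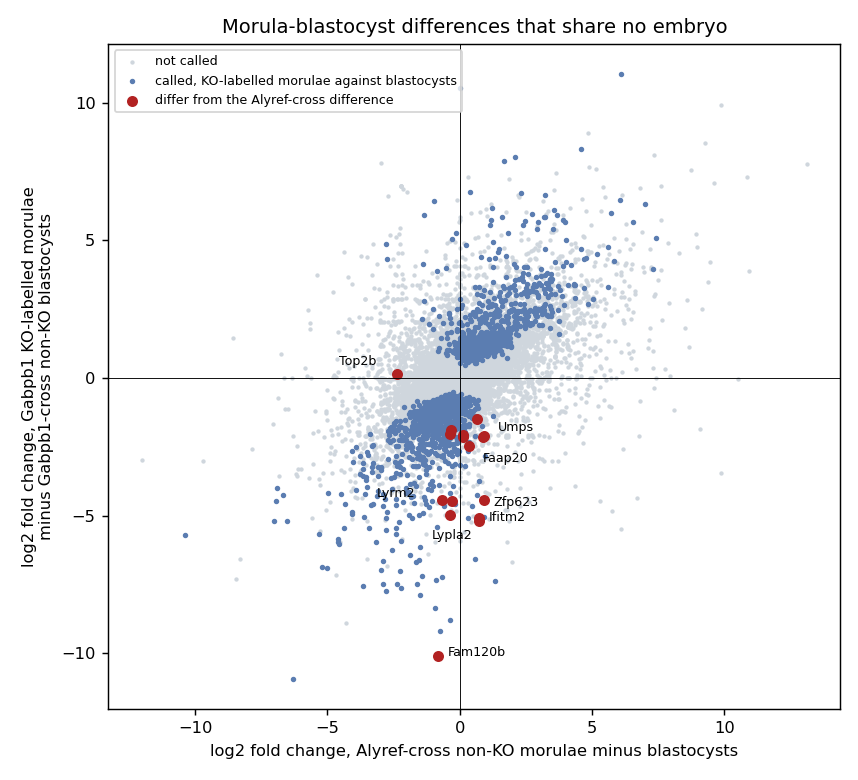
Each point is 1 of the 18410 tested genes, with the log2 fold change of Alyref-cross non-KO morulae against blastocysts on the horizontal axis and that of Gabpb1 KO-labelled morulae against sibling blastocysts on the vertical axis. Genes called in the latter (blue) mostly lie in the lower left and upper right of the plot, and the 16 genes whose differences themselves differ (red, 8 of them named) lie off that diagonal.

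GABP binds the letters CCGGAAGT and their variants, so the promoters of the called genes were searched for them. RefSeq promoter windows (GRCm38.p6, 250 bases before to 50 after a start) were at hand for 9535 of the 18410 tested genes, and CCGGAAGT was counted on either strand. The motif was in 913 of these 9535 (9.58%). It was in 116 of 594 genes lower in KO-labelled morulae (19.5%) and in 27 of 482 higher genes (5.60%). In the Alyref cross it was in 47 of 667 genes lower in morulae (7.05%) and 83 of 782 higher ones (10.6%). The share among genes lower in KO-labelled morulae was above that of all tested genes, while the share among genes lower in Alyref-cross morulae was below it. Among lower genes not called in the Alyref cross, 92 of 410 (22.4%) held the motif.

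The share was also taken in subsets. Among genes with a mean level of 5 FPKM (scaled for depth and gene length) or more, 80 of 366 lower genes (21.9%) and 521 of 4602 tested genes (11.3%) held the motif, and below that level 36 of 228 (15.8%) and 392 of 4933 (7.95%). Mean GC content was 60.4% in windows of lower genes and 60.0% in all. The shorter CCGGAAG, which every CCGGAAGT match contains, was in 32.2% of lower, 12.2% of higher and 20.8% of all tested genes. Leaving out 1 embryo gave shares of CCGGAAGT from 16.6% to 23.4% in lower genes and 5.73% to 10.1% in higher genes, the last over 69 genes without the third blastocyst. With ERCC scaling 2 of 15 lower genes held it. Letters in a window are a description and do not show binding, by GABP or by any other factor.

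**Figure D2:**
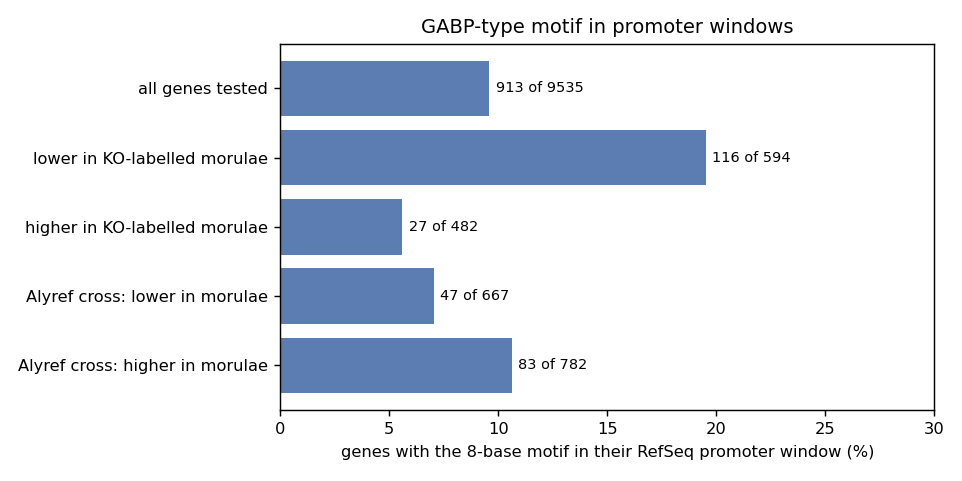
Share of genes whose RefSeq promoter window holds CCGGAAGT on either strand, in percent, with the numbers of genes beside the bars. Genes lower in KO-labelled morulae have 19.5%, against 9.58% of all genes tested and 7.05% of genes lower in Alyref-cross morulae.

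Lypla2, which encodes an acyl-protein thioesterase (ENSMUSG00000028670.14, chr4:135968224-135972626, minus strand), was the gene with the smallest adjusted p of the whole comparison. It was at 1.04, 0.931 and 1.07 CPM in KO-labelled morulae, 23.8, 34.8 and 38.9 CPM in sibling blastocysts and 30.6 and 43.1 CPM in sibling morulae. The Alyref-cross morulae had 31.8, 15.1 and 27.8 CPM and the WT blastocysts 27.4, 40.6 and 46.5 CPM. All 3 KO-labelled embryos lay below every embryo of the 5 groups not labelled KO. On the log2 scale Lypla2 differed by -4.99, with SE 0.37 and adjusted p = 1.05e-05.

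Of the genes named by rule, Lypla2, Mrpl27 and Tfam, which fell, and Rps6, which rose, hold CCGGAAGT before their start. The stretches of Lypla2 and Rps6 that lie outside any annotated exon are shown to set the same letters beside opposite changes, 5′ to 3′ on the strand of the gene, with the motif in capitals. The Lypla2 stretch is chr4:135972627-135972726 on the minus strand, where the capitals are the reverse complement of CCGGAAGT beginning 61 bases before the RefSeq start. The Rps6 stretch is chr4:86857413-86857512 on the minus strand, where the capitals, CCGGAAGT itself, begin 91 bases before it.
Lypla2: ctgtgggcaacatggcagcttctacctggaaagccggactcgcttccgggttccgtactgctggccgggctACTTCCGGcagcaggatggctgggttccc
Rps6: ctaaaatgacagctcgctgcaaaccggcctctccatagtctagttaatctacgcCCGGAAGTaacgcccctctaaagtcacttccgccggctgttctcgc
Rps6, a protein of the small ribosomal subunit, was at 755, 876 and 798 CPM in KO-labelled morulae and 566, 624 and 476 CPM in blastocysts (log2 fold change 0.54, SE 0.15, adjusted p = 0.0406), the opposite direction to Lypla2. Of the 15 genes lower beyond the Alyref-cross difference, 10 had a window and 1, Lypla2, held CCGGAAGT.

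Most trophectoderm genes stood lower in the KO-labelled morulae, 16 of 20 by sign. Of these 20 tested markers, 3 passed the test as lower (Id2, Eomes and Fgfr2) and 1 as higher (Hand1), and the median was -1.23 against 0.05 for all genes (20% called against 8.92%). With ERCC scaling the median was -0.45. With 1 embryo left out, lower calls ran from 0 (without KO-labelled morula 3, blastocyst 1 or blastocyst 3) to 12 (without KO-labelled morula 1, median -1.98). In the Alyref cross the median of the same genes was -2.08. Summed over the list, trophectoderm markers were at 4853, 814 and 2298 CPM in KO-labelled morulae and 8424, 7168 and 7778 CPM in sibling blastocysts. The first KO-labelled morula had the highest sum of its group and the second the lowest, and the groups did not overlap. The sibling morulae, at 6713 and 4537 CPM, lay on either side of the highest KO-labelled morula. In these whole-embryo libraries, fewer cells of a type and less RNA per cell cannot be told apart.

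Id2, an inhibitor of basic helix-loop-helix factors expressed in outer cells, was at 108, 0.186 and 20.4 CPM in KO-labelled morulae and 1066, 753 and 700.3 CPM in blastocysts. All 3 KO-labelled embryos were far below the blastocysts, and the second held almost none. Id2 had a fitted log2 fold change of -4.30 with SE 1.15 and adjusted p = 0.0327. Id2 was not called without KO-labelled morula 3 or blastocyst 1 or 3 (adjusted p = 0.0782 to 0.0988). Eomes, a T-box factor of trophoblast, was at 14.4, 1.12 and 2.43 CPM against 69.1, 54.7 and 99.4 CPM (log2 fold change -3.64, SE 0.94, adjusted p = 0.0282). Fgfr2, a receptor for FGF4, fell by 1.38 on the log2 scale (adjusted p = 0.0435), although the first KO-labelled morula overlapped the second blastocyst. Eomes was not called without KO-labelled morula 2 or 3 or blastocyst 1 or 3 (adjusted p = 0.0627 to 0.0909). Fgfr2 was not called without KO-labelled morula 2 or 3 or blastocyst 1 or 3 (adjusted p = 0.115 to 0.138).

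Hand1, a factor of trophoblast giant cell differentiation, moved the other way. Hand1 was at 5.37, 41.7 and 21.5 CPM in KO-labelled morulae and 0.414, 0.476 and 0 CPM in blastocysts, log2 fold change 6.33, SE 1.45, adjusted p = 0.0174. The groups did not overlap, and the rise in the Alyref-cross morulae was 7.01. Hand1 was not called without blastocyst 1 or 3 (adjusted p = 0.0627 to 0.0820). Cdx2, which specifies trophectoderm and is given here for that role and not by the naming rule, was at 20.6, 3.91 and 10.9 CPM against 25.0, 20.5 and 29.8 CPM and was not called (log2 fold change -1.09, SE 0.45, adjusted p = 0.135).

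Keratins fill the trophectoderm as its intermediate filaments. None of 11 tested keratin and desmosome genes was called by edgeR's quasi-likelihood test. An unadjusted p under 0.05 was found for 3 of the 11, beside 27.0% of all genes. They are Krt7, Krt8 and Krt18, which the trophectoderm list also holds. DESeq2 called 3 lower, beside 1627 lower of all 18410 genes. Krt18 was at 1360.5, 72.5 and 377 CPM in KO-labelled morulae and 2949, 2623 and 2593 CPM in blastocysts, and all 3 KO-labelled embryos were lower, over a range of more than an order of magnitude. The fitted difference in Krt18 was -2.17 on the log2 scale, with SE 0.75 and adjusted p = 0.0780. Krt8, its filament partner, was at 770.0, 146 and 411 CPM against 1458, 1218 and 1946 CPM (log2 fold change -1.80, SE 0.59, adjusted p = 0.0646). Without the first KO-labelled morula, the one nearest to the blastocysts, 4 of the 11 were called lower.

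**Figure D3:**
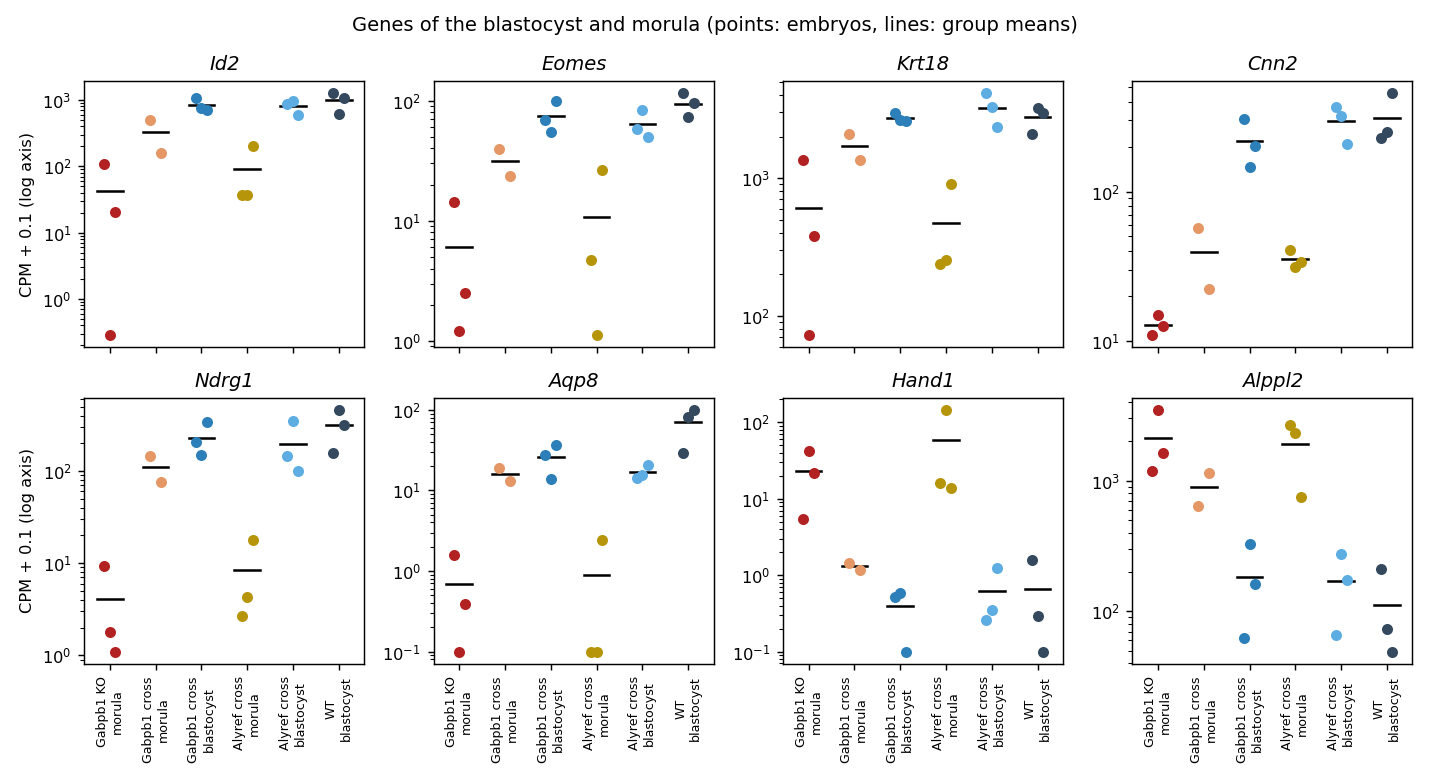
CPM of 8 genes in each embryo of 6 groups, on a log axis after adding 0.1, with group means as lines. Id2, Eomes, Krt18, Cnn2, Ndrg1 and Aqp8 are low and Hand1 and Alppl2 high in KO-labelled and in Alyref-cross morulae relative to all 9 blastocysts, with no overlap. The 2 sibling morulae lie above all KO-labelled embryos for Id2, Eomes, Cnn2, Ndrg1 and Aqp8.

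Of 15 tested primitive endoderm markers, 10 stood lower by sign, 2 fell and none rose (13.3% called against 8.92% of all genes), with a median of -1.39, and -0.86 with ERCC scaling. No member was called without KO-labelled morula 2 or 3 or blastocyst 3. Sparc, a matrix glycoprotein of that lineage, was at 13.7, 4.10 and 11.7 CPM in KO-labelled morulae and 203, 149 and 180.0 CPM in blastocysts (log2 fold change -4.17, SE 0.98, adjusted p = 0.0196). Gata4, a factor of primitive endoderm, was at 1.73, 0 and 0.927 CPM against 19, 3.45 and 18.2 CPM (log2 fold change -3.92, SE 0.98, adjusted p = 0.0264). In both genes the groups did not overlap. Sparc was not called without KO-labelled morula 2 or 3 or blastocyst 3 (adjusted p = 0.0560 to 0.0753). Gata4 was not called without KO-labelled morula 2 or 3 or blastocyst 1 or 3 (adjusted p = 0.0669 to 0.0834). Gata6, which is expressed before Gata4 in the lineage and is outside the naming rule, was at 189, 155 and 137 CPM against 111, 105 and 76.6 CPM (log2 fold change 0.72, SE 0.24, adjusted p = 0.0703).

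Among 17 tested epiblast and pluripotency genes, 2 rose and none fell, a share of 11.8% beside 8.92% of all genes. The median was 0.18, and 0.01 to 0.41 with 1 embryo left out. No member was called in 4 of those 6 omissions, those of KO-labelled morulae 2 and 3 and blastocysts 1 and 3. Spic, an ETS-family factor, rose by 2.06 (adjusted p = 0.0416), from 59.9, 149 and 44.7 CPM in blastocysts to 186, 558 and 309.9 CPM in KO-labelled morulae. Klf2, a pluripotency factor, was at 28.7, 95.4 and 101 CPM against 31.1, 20.5 and 21.3 CPM, with an overlap between the first KO-labelled morula and the first blastocyst (log2 fold change 1.63, SE 0.49, adjusted p = 0.0498). Spic was not called without KO-labelled morula 2 or 3 or blastocyst 1 or 3 (adjusted p = 0.0710 to 0.157). Klf2 was not called without KO-labelled morula 2 or 3 or blastocyst 1 or 2 or 3 (adjusted p = 0.0920 to 0.160). Pou5f1 and Nanog, core pluripotency factors outside the naming rule, were not called. Pou5f1 was at 120.2, 93.2 and 118 CPM against 105, 84.4 and 149 CPM (log2 fold change -0.03, SE 0.24, adjusted p = 0.966), and Nanog at 223, 154 and 206 CPM against 123, 166 and 161 CPM (log2 fold change 0.38, SE 0.24, adjusted p = 0.333).

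Signalling genes were lower by sign in 13 of 19 cases in the Wnt, Nodal and BMP list and in 8 of 12 in the FGF list. In the first, 3 of 19 tested genes fell (Dkk1, Tcf7l1 and Id2) and 1 rose (Porcn), 21.1% called against 8.92% of all genes, with a median of -0.92, and -0.19 with ERCC scaling. No member was called without KO-labelled morula 3 or blastocyst 3. Dkk1, a secreted Wnt antagonist, was at 9.26, 1.21 and 1.71 CPM in KO-labelled morulae and 24.3, 34.7 and 56.8 CPM in blastocysts (log2 fold change -3.25, SE 0.76, adjusted p = 0.0194). Porcn, which acylates Wnt ligands, rose by 1.58 (adjusted p = 0.0283). In the FGF list 2 of 12 fell, Fgfr2 and Fgfbp1 (16.7% called), with a median of -0.89, and -0.19 with ERCC scaling. None of the 12 was called in 4 of the 6 omissions, those of KO-labelled morulae 2 and 3 and blastocysts 1 and 3. Fgfbp1, a carrier of secreted FGFs, was at 3.12, 1.30 and 1.78 CPM against 9.69, 4.41 and 12.8 CPM (log2 fold change -2.12, SE 0.53, adjusted p = 0.0259). Dkk1 was not called without KO-labelled morula 2 or 3 or blastocyst 3 (adjusted p = 0.0651 to 0.0765). Porcn was not called without KO-labelled morula 2 or 3 or blastocyst 1 or 2 or 3 (adjusted p = 0.0559 to 0.127). Fgfbp1 was not called without KO-labelled morula 2 or 3 or blastocyst 1 or 3 (adjusted p = 0.0689 to 0.111). Tcf7l1 was not called without KO-labelled morula 1 or 2 or 3 or blastocyst 1 or 3 (adjusted p = 0.0512 to 0.115).

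Actin and myosin genes gave the largest share of called members among the lists used. Of 18 tested actomyosin genes, 8 fell and none rose (44.4% called against 8.92% of all genes), with a median of -0.92. The same genes had a median of -1.62 in the Alyref cross, so this fall is also seen without a KO label. With ERCC scaling the median was -0.35 and 1 of the 18, Cnn2, was called, and fitting the 6 embryos alone also left 1 call. Cnn2, an actin-binding calponin, was at 10.8, 14.8 and 12.4 CPM in KO-labelled morulae and 307, 147 and 203 CPM in blastocysts. The KO-labelled values were close together and far below the blastocysts, and the sibling morulae lay between at 56.6 and 22.0 CPM. On the log2 scale Cnn2 differed by -4.11, with SE 0.42 and adjusted p = 0.000142. Myl12a, a myosin regulatory light chain, was at 294, 203 and 174 CPM against 654, 724 and 484 CPM (log2 fold change -1.47, SE 0.24, adjusted p = 0.00395). Actg1, a cytoplasmic actin, was at 941, 1273 and 1346 CPM against 2144, 2196 and 2859 CPM (log2 fold change -1.02, SE 0.20, adjusted p = 0.00917). Myl9, another regulatory light chain, fell by 5.20 on the log2 scale (adjusted p = 0.0110) from 21.3, 2.14 and 4.84 CPM to 0.519, 0.0931 and 0.143 CPM. These 4 kept their calls without any 1 embryo, and 4 to 11 genes of the list were called under those omissions.

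Genes of the blastocoel and of the epithelium that seals it were called in 1 of 8 and 2 of 18 cases. Aqp8, a water channel, was at 1.47, 0 and 0.285 CPM in KO-labelled morulae and 27.5, 13.9 and 36.9 CPM in blastocysts (log2 fold change -5.47, SE 1.22, adjusted p = 0.0162). It was the 1 gene called among 8 tested pumps and water channels, whose median was -0.42, and -0.01 with ERCC scaling (12.5% called against 8.92% of all genes). Of 18 polarity and junction genes 2 fell, F11r and Cldn4 (11.1% called). F11r, a junctional adhesion molecule, was at 171, 191 and 171 CPM against 342, 307 and 248 CPM (log2 fold change -0.75, SE 0.19, adjusted p = 0.0245). Cldn4, a tight junction claudin, was at 265, 218 and 246 CPM against 451, 372 and 489 CPM (log2 fold change -0.85, SE 0.25, adjusted p = 0.0480). The median of the polarity and junction list was -0.65, and 0.02 with ERCC scaling. Aqp8 was not called without KO-labelled morula 2 or 3 or blastocyst 3 (adjusted p = 0.0534 to 0.0578). F11r was not called without KO-labelled morula 2 or 3 or blastocyst 1 (adjusted p = 0.0508 to 0.0937). Cldn4 was not called without KO-labelled morula 2 or 3 or blastocyst 1 or 3 (adjusted p = 0.0961 to 0.155).

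Cholesterol synthesis and uptake genes had lower values in 20 of 21 cases, and 4 of them fell (19% called against 8.92% of all genes). The median was -0.82, and -0.57 with ERCC scaling. Srebf2, the factor that drives the pathway, was at 2.77, 0.279 and 0.285 CPM in KO-labelled morulae and 41.6, 9.76 and 45.6 CPM in blastocysts (log2 fold change -4.87, SE 0.99, adjusted p = 0.0110). Hmgcs1, which makes HMG-CoA, was at 20.8, 11.8 and 15.2 CPM against 86.7, 46.7 and 74.1 CPM (log2 fold change -2.12, SE 0.40, adjusted p = 0.00825). Lss, which closes the sterol ring, was at 11.9, 10.1 and 6.42 CPM against 46.2, 10.4 and 39.5 CPM, with overlapping groups (log2 fold change -1.76, SE 0.45, adjusted p = 0.0272). The sibling morulae were also low for Srebf2, at 4.51 and 1.45 CPM, and for Hmgcs1, at 19.2 and 34.5 CPM. The calls of Srebf2 and Hmgcs1 held without any 1 of the 6 embryos and were lost with ERCC scaling (adjusted p = 0.125 for Srebf2 and 0.275 for Hmgcs1). Lss was not called without KO-labelled morula 2 or 3 or blastocyst 1 or 3 (adjusted p = 0.0718 to 0.108).

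Of 19 endocytosis and lysosome genes 2 rose and none fell, a share (10.5%) near the 8.92% of all genes. Lamp2, a lysosomal membrane protein, was at 191, 665 and 777 CPM in KO-labelled morulae and 95.5, 171 and 78.3 CPM in blastocysts (log2 fold change 2.24, SE 0.43, adjusted p = 0.00863). Ctsz, a lysosomal protease, was at 59.6, 307 and 265 CPM against 39.9, 41.9 and 32.7 CPM (log2 fold change 2.46, SE 0.54, adjusted p = 0.0152). In both genes the groups did not overlap, and the sibling morulae were at 255 and 483 CPM for Lamp2 and 85.8 and 119 CPM for Ctsz. Ctsz was not called without KO-labelled morula 2 or blastocyst 1 or 3 (adjusted p = 0.0528 to 0.0729).

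The largest rises by the naming rule were in genes of several kinds. Obox6, a homeobox gene of the oocyte-specific Obox family, was at 83.4, 458 and 344 CPM in KO-labelled morulae and 2.40, 28.7 and 1.91 CPM in blastocysts (log2 fold change 4.78, SE 1.19, adjusted p = 0.0257). The lowest KO-labelled morula had more than the highest blastocyst, and the sibling morulae were at 22.1 and 12.8 CPM. Alppl2, an embryonic alkaline phosphatase, was at 1175, 3483 and 1633 CPM against 62.4, 327 and 161 CPM (log2 fold change 3.52, SE 0.76, adjusted p = 0.0136), and the sibling morulae had 634 and 1148 CPM. Fbxl20, an F-box protein, was at 86.3, 466 and 337 CPM against 31.1, 11.8 and 22.4 CPM (log2 fold change 3.76, SE 0.79, adjusted p = 0.0125). These 3 genes were also higher in the Alyref-cross morulae, with called log2 fold changes of 5.60, 3.47 and 3.45. Obox6 was not called without KO-labelled morula 2 or 3 or blastocyst 1 or 3 (adjusted p = 0.0520 to 0.103). Alppl2 was not called without blastocyst 1 or 3 (adjusted p = 0.0526 to 0.0685). Fbxl20 was not called without blastocyst 3 (adjusted p = 0.0626).

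The other large rises were in Adm (5.85), a peptide hormone, Fcgrt (4.70), the neonatal Fc receptor, Lhfpl5 (4.31), Vpreb3 (4.21), Plk5 (4.20), Gabrd (3.60), a GABA receptor subunit, Map7d2 (3.47) and Tktl1 (3.46), with adjusted p from 0.00553 to 0.0282. Adm was at 4.15, 55.6 and 1.21 CPM in KO-labelled morulae and 0, 1.19 and 0 CPM in blastocysts, with most of the KO-labelled signal in embryo 2. Adm was not called without KO-labelled morula 2 or blastocyst 1 or 3 (adjusted p = 0.0977 to 0.186). The mitochondrial tRNA rows mt-Tf and mt-Tv rose by 4.37 and 3.54 (adjusted p = 0.0123 and 0.00349). Snora47, a small nucleolar RNA inside Zbed3, was at least 8.39-fold higher, against 3 counts per blastocyst library. Vpreb3, Gabrd and mt-Tv kept their calls without any 1 embryo, and the call of each of the others was lost without blastocyst 3.

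Among the largest falls was Ndrg1, a stress- and differentiation-responsive gene, at 9.26, 1.68 and 0.999 CPM in KO-labelled morulae and 206, 147 and 337 CPM in blastocysts. The highest KO-labelled embryo lay more than an order of magnitude below the lowest blastocyst, and Ndrg1 had a fitted log2 fold change of -5.86 with SE 0.97 and adjusted p = 0.00429. The fall in the Alyref-cross morulae was -4.59. Serpinb6b, a serine protease inhibitor, B3gnt5, a glycosyltransferase, and Mtap, of methionine salvage, fell with log2 fold changes of -5.07, -4.60 and -4.56 (adjusted p = 0.0104, 0.0230 and 0.00986). Tmem126a, a mitochondrial membrane protein of complex I assembly, was at 6.23, 0.558 and 1.14 CPM against 70.7, 33.2 and 52.3 CPM (log2 fold change -4.30, SE 0.64, adjusted p = 0.00277). Minpp1, an inositol phosphate phosphatase, Wfdc15a and Ldoc1 fell with log2 fold changes of -4.18, -4.07 and -4.34 (adjusted p = 0.00271, 0.00627 and 0.0255). B3gnt5 was not called without KO-labelled morula 3 or blastocyst 3 (adjusted p = 0.0722 to 0.0754). Ldoc1 was not called without KO-labelled morula 2 or 3 or blastocyst 1 or 3 (adjusted p = 0.0565 to 0.0859).

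Lypla2, Lyrm2 and Ifitm2, also among the largest falls, are described further on. Ifitm2 and the tetraspanins Tspan8 and Tspan15 were the 3 genes that fell among 11 tested Ifitm and tetraspanin membrane proteins (27.3% called against 8.92% of all genes), with a median of -0.09, and 0.12 with ERCC scaling. With 1 embryo left out, 1 to 3 of the 11 were called. Tspan8 was at 146, 5.58 and 12.1 CPM in KO-labelled morulae and 609, 455 and 307 CPM in blastocysts (log2 fold change -3.07, SE 0.89, adjusted p = 0.0439), and Tspan15 at 6.49, 3.63 and 1.36 CPM against 11.8, 8.57 and 55.5 CPM (log2 fold change -2.73, SE 0.77, adjusted p = 0.0405). Tspan8 was not called without KO-labelled morula 2 or 3 or blastocyst 1 or 2 or 3 (adjusted p = 0.0561 to 0.114). Tspan15 was not called without KO-labelled morula 2 or 3 or blastocyst 1 or 3 (adjusted p = 0.0529 to 0.259).

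Mitochondrial genes, the group best known for GABP sites, moved in part and not as 1 block. Of 93 tested nuclear genes of oxidative phosphorylation (OXPHOS), 11 fell and none rose (11.8% called against 8.92% of all genes). The list's median was -0.22, 0.22 with ERCC scaling, and -0.65 in the Alyref cross. By sign 65 of the 93 were lower. For 30 every KO-labelled morula lay below every blastocyst and for 3 above, beside 26.3% of all genes either way. An unadjusted p under 0.05 was found for 27 lower and 4 higher genes, beside 27.0% of all genes. DESeq2 called 20 lower and 1 higher. Cox6b1, a subunit of complex IV, was at 299.8, 274 and 255 CPM in KO-labelled morulae and 518, 673 and 507 CPM in blastocysts (log2 fold change -1.04, SE 0.19, adjusted p = 0.00732). Sdhd, the membrane anchor of complex II, was at 115, 68.6 and 99.1 CPM against 386, 252 and 309.6 CPM (log2 fold change -1.74, SE 0.36, adjusted p = 0.0116). Ndufb5, a subunit of complex I, was at 124, 117 and 99.6 CPM against 203, 228 and 192 CPM (log2 fold change -0.87, SE 0.20, adjusted p = 0.0167). These 3 genes also fell in the Alyref-cross morulae, with log2 fold changes of -0.81, -1.36 and -0.81. Leaving out 1 embryo left 3 to 20 lower calls in the list, 20 without KO-labelled morula 1 and 3 without blastocyst 3. Ndufb5 was not called without KO-labelled morula 3 (adjusted p = 0.0582).

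Of 78 tested mitochondrial ribosomal protein genes, 5 fell and 2 rose (8.97% called, close to the 8.92% of all genes), with a median of -0.02, and 0.36 with ERCC scaling. Mrps21, of the small subunit, was at 23.6, 24.5 and 23.0 CPM in KO-labelled morulae and 81.9, 109 and 76.2 CPM in blastocysts. The KO-labelled values lay within 2 CPM of each other and far below the blastocysts, and the sibling morulae were at 78.9 and 113 CPM. The fitted difference in Mrps21 was -1.91 on the log2 scale, with SE 0.22 and adjusted p = 0.000535, and against the sibling morulae it was -2.02. Mrpl27, of the large subunit, was at 48.3, 35.4 and 33.0 CPM against 89.4, 91.0 and 83.4 CPM (log2 fold change -1.18, SE 0.19, adjusted p = 0.00427). Mrpl33 and Mrps12 had log2 fold changes of -1.01 and -0.89 (adjusted p = 0.0162 and 0.0283). In the Alyref cross the corresponding differences were -0.35 for Mrps21, -0.36 for Mrpl27, 0.06 for Mrpl33 and -0.05 for Mrps12, none of them called. Mrpl33 was not called without KO-labelled morula 3 or blastocyst 3 (adjusted p = 0.0557 to 0.0563). Mrps12 was not called without KO-labelled morula 2 or 3 or blastocyst 1 or 3 (adjusted p = 0.0715 to 0.0994).

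Tfam, which packages and transcribes mitochondrial DNA, was the 1 gene called of 21 tested for mitochondrial DNA maintenance and expression (4.76% against 8.92% of all genes). It was at 25.8, 36.4 and 15.9 CPM in KO-labelled morulae, 68.2, 36.7 and 71.5 CPM in blastocysts and 68.5 and 64.9 CPM in sibling morulae. The second KO-labelled morula almost met the second blastocyst. On the log2 scale Tfam differed by -1.18, with SE 0.31 and adjusted p = 0.0291, and the Alyref-cross difference was 0.13. Tfam was not called without KO-labelled morula 3 or blastocyst 1 or 3 (adjusted p = 0.0911 to 0.120). The list's median was 0.02, and 0.63 with ERCC scaling. Txn2, the mitochondrial thioredoxin, was at 122, 85.6 and 119.6 CPM against 295, 280.0 and 418 CPM (log2 fold change -1.60, SE 0.23, adjusted p = 0.00189), and it was the 1 gene called of 25 antioxidant enzymes (4%).

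Of 13 mitochondrially encoded mRNAs, mt-Nd2 rose and mt-Co1 and mt-Co3 fell (23.1% called against 8.92% of all genes). The median was 0.03, and 0.83 with ERCC scaling. mt-Nd2, a complex I subunit, was at 3942, 4418 and 3265 CPM in KO-labelled morulae and 1223, 2122 and 2083 CPM in blastocysts (log2 fold change 1.10, SE 0.23, adjusted p = 0.0117). mt-Co1, a complex IV subunit, was at 7976, 3154 and 2686 CPM against 13652, 10732 and 11947 CPM (log2 fold change -1.39, SE 0.40, adjusted p = 0.0432), and mt-Co3 fell by 1.48 (adjusted p = 0.0457). mt-Co1 was not called without KO-labelled morula 2 or 3 or blastocyst 1 or 3 (adjusted p = 0.114 to 0.140). mt-Co3 was not called without KO-labelled morula 2 or 3 or blastocyst 1 or 2 or 3 (adjusted p = 0.0516 to 0.146).

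Of 81 tested cytosolic ribosomal protein genes, 5 rose and none fell, a share (6.17%) below the 8.92% of all genes. The log2 fold change was positive for 68, with a median of 0.28 against 0.05 for all genes. No member was called without KO-labelled morula 2, blastocyst 1 or blastocyst 3. Rps10 was at 523, 563 and 442 CPM in KO-labelled morulae and 313, 357 and 241 CPM in blastocysts (log2 fold change 0.75, SE 0.18, adjusted p = 0.0216). Rplp2 rose by 0.78, Rps29 by 0.74 and Rps6 by 0.54 (adjusted p = 0.0274, 0.0486 and 0.0406). Rps10 was not called without KO-labelled morula 2 or blastocyst 1 or 3 (adjusted p = 0.0628 to 0.103). Rplp2 was not called without KO-labelled morula 2 or blastocyst 1 or 3 (adjusted p = 0.101 to 0.116). Rps29 was not called without KO-labelled morula 2 or 3 or blastocyst 1 or 3 (adjusted p = 0.0518 to 0.205). Rps6 was not called without KO-labelled morula 2 or 3 or blastocyst 1 or 3 (adjusted p = 0.0867 to 0.159). Ribosomal protein genes have many processed pseudogenes, and how the counting placed reads shared with them is not given in the sources used here.

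**Figure D4:**
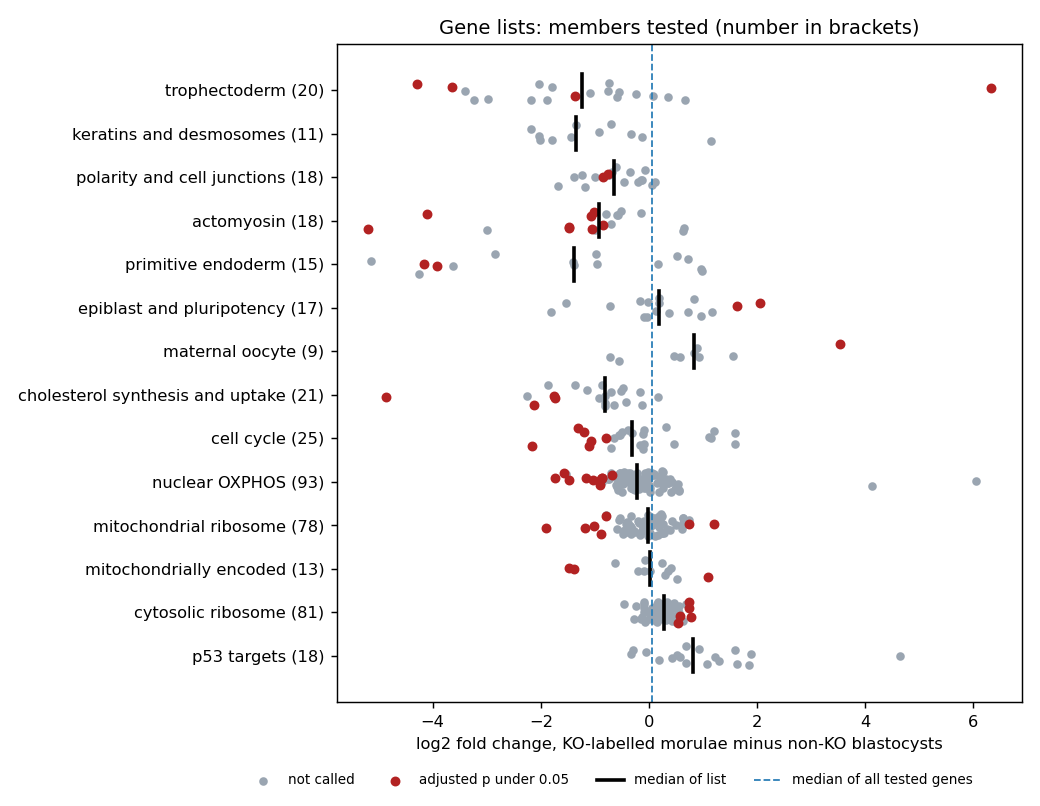
Log2 fold changes of KO-labelled morulae against sibling blastocysts for the tested members of 14 gene lists, with members called at an adjusted p under 0.05 in red, list medians as bars and the median of all tested genes as a dashed line. Actomyosin (8 of 18 called, all lower) has the largest share of called members. The medians are -0.02 for mitochondrial ribosome and -0.22 for nuclear OXPHOS, where 65 of 93 members are lower.

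Cell cycle genes fell in 6 of 25 cases and rose in none by edgeR's test (24.0% called against 8.92% of all genes), while DESeq2 called 3 higher and voom with embryo weights 4. The list's median was -0.31, and -0.05 with ERCC scaling, where none was called. Leaving out 1 embryo left 2 to 6 lower calls, and 3 members were called higher without KO-labelled morula 1. Mcm3, a subunit of the replicative helicase, was at 15.1, 8.84 and 17.2 CPM in KO-labelled morulae and 55.6, 52.8 and 75.8 CPM in blastocysts (log2 fold change -2.16, SE 0.31, adjusted p = 0.00195). The groups were far apart, while in the Alyref cross the difference was -0.13. Mcm5, of the same complex, and Cdk2, the S-phase kinase, fell with log2 fold changes of -1.21 and -1.32 (adjusted p = 0.0279 and 0.0280). Ccnb2, a mitotic cyclin, was at 198, 161 and 163 CPM against 383, 366 and 380.3 CPM (log2 fold change -1.11, SE 0.23, adjusted p = 0.0109). Mcm3 and Ccnb2 kept their calls without any 1 embryo. Mcm5 was not called without KO-labelled morula 2 or 3 or blastocyst 3 (adjusted p = 0.0740 to 0.146). Cdk2 was not called without KO-labelled morula 2 or blastocyst 1 or 3 (adjusted p = 0.0544 to 0.134).

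Of 18 p53 targets none was called by edgeR's test, and DESeq2 called 2, both higher. An unadjusted p under 0.05 was found for 9 of the 18, all higher, beside 27.0% of all genes. Against the WT blastocysts edgeR's test called 10 of the 18 higher, beside 1677 of all 18410 genes. Against all 9 blastocysts edgeR's test called 13 of the 18 higher, beside 2688 of all genes. It called 3 higher without blastocyst 2 and 2 without KO-labelled morula 1. The median was 0.81, and 0.90 in the Alyref cross. Summed over the list, KO-labelled morulae had 1391, 2582 and 1940 CPM and sibling morulae 1804 and 2765 CPM. The blastocysts had 793, 1509 and 1160 CPM. Cdkn1a, the p21 cell cycle inhibitor, was at 224, 461 and 300.0 CPM in KO-labelled morulae, 22.9, 239 and 66.5 CPM in blastocysts and 155 and 426 CPM in sibling morulae (log2 fold change 1.59, SE 0.74, adjusted p = 0.182). Its groups overlapped, as they did for Ccng1, another target, at 313, 683 and 497 CPM against 147, 338 and 298 CPM (log2 fold change 0.93, SE 0.35, adjusted p = 0.102).

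Transcripts of earlier stages were also looked for. Of 9 maternal oocyte genes 1 rose (11.1% against 8.92% of all genes), Zp3, a coat protein of the egg, from 0.331, 0.476 and 0.293 CPM in blastocysts to 1.56, 4.19 and 7.06 CPM in KO-labelled morulae (log2 fold change 3.54, SE 0.83, adjusted p = 0.0196). Zp3 was not called without KO-labelled morula 3 or blastocyst 1 or 3 (adjusted p = 0.0609 to 0.0903). Dppa3, a maternal protein that protects methylation, was at 3033, 5652 and 4345 CPM against 1871, 3299 and 2136 CPM (log2 fold change 0.83, SE 0.27, adjusted p = 0.0666). Of 7 tested 2-cell-stage genes none was called by edgeR's test, and DESeq2 called 1, higher. An unadjusted p under 0.05 was found for 4 of the 7, all higher, beside 27.0% of all genes. By sign 6 of the 7 were higher, and the median was 4.63 against 0.05 for all genes. In the Alyref cross the median of the same genes was 2.69. For 3 of the 7 every KO-labelled morula lay above every blastocyst. Tcstv3, of that list, was at 0.692, 17.9 and 0.0713 CPM in KO-labelled morulae, nearly all of it in the second embryo, and at 0, 0.119 and 0 CPM in blastocysts.

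A difference beyond that of the Alyref-cross morulae was tested directly. For 16 genes (0.0869% of those tested) the KO-labelled morula-blastocyst difference itself differed from the Alyref-cross one, 15 of them in the direction of lower levels in KO-labelled morulae and 1, Top2b, in the other. Cross and KO label cannot be told apart in this test. In 14 of the 15, all but Exosc3, the KO-labelled morulae were also called lower than the 2 sibling morulae, a comparison that shares the KO-labelled embryos and in which 1.65% of all tested genes were called. By chromosome, 4 of the 16 were on chromosome 4 and 4 on chromosome 16, which hold 6.51% and 2.79% of tested genes. Those on chromosome 16 are the overlapping pairs Umps with Gm15829 and Nubp1 with Tvp23a, and may be 2 loci.

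For Lypla2, whose values stand beside its promoter above, the difference from the Alyref cross was -4.61 (SE 0.46, adjusted p = 0.000719). Lyrm2, a small protein of the LYR family of mitochondrial assembly factors (ENSMUSG00000045854.4, chr4:32800253-32801559, plus strand), showed the same pattern. Lyrm2 was at 1.56, 0.652 and 2.21 CPM in KO-labelled morulae, 29.7, 40.2 and 28 CPM in sibling blastocysts, 28.3 and 40.8 CPM in sibling morulae and 37.0, 25.4 and 26.6 CPM in Alyref-cross morulae. Lyrm2 had a fitted log2 fold change of -4.44 with SE 0.38 and adjusted p = 2.54e-05, and the difference from the Alyref cross was -3.77 (SE 0.48, adjusted p = 0.00317). Nubp1, a factor of cytosolic iron-sulfur cluster assembly (ENSMUSG00000022503.10, chr16:10411948-10424428, plus strand), was at 17.7, 17.8 and 16.3 CPM in KO-labelled morulae, 76.8, 57.6 and 76.1 CPM in blastocysts and 55.4 and 61.0 CPM in sibling morulae. The KO-labelled values of Nubp1 lay within 2 CPM of each other. The fitted difference in Nubp1 was -2.02 on the log2 scale, with SE 0.18 and adjusted p = 2.84e-05, and the difference from the Alyref cross was -1.66 (SE 0.24, adjusted p = 0.0113). Tvp23a overlaps Nubp1 on the opposite strand and fell in parallel, at 10.6, 11.5 and 10.6 CPM against 46.0, 36.0 and 40.6 CPM (log2 fold change -1.91, SE 0.18, adjusted p = 8.55e-05). Whether the counting used strand is not given in the sources used here, so reads of the 2 genes cannot be told apart where they overlap.

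Umps, which makes UMP in pyrimidine synthesis (ENSMUSG00000022814.6, chr16:33954782-33967038, minus strand), was at 23.7, 12.6 and 26.3 CPM in KO-labelled morulae, 82.3, 73.2 and 118 CPM in blastocysts and 111 and 73.2 CPM in sibling morulae. Alyref-cross morulae had 192, 129.7 and 124 CPM, above their own blastocysts at 72.7, 86.9 and 80.2 CPM. On the log2 scale Umps differed by -2.13, with SE 0.31 and adjusted p = 0.00212, and the difference from the Alyref cross was -3.02 (SE 0.42, adjusted p = 0.00769). Gm15829, which lies antisense to Umps, fell with it (log2 fold change -2.11, SE 0.35, adjusted p = 0.00440). Ifitm2, an interferon-induced membrane protein (ENSMUSG00000060591.9, chr7:140954837-140955987, minus strand), was at 1.99, 0.279 and 0.357 CPM against 32.4, 21.4 and 42.0 CPM, with 58.2, 59.8 and 50.7 CPM in Alyref-cross morulae. Ifitm2 had a fitted log2 fold change of -5.19 with SE 0.61 and adjusted p = 0.000535, and Gm45717, which overlaps Ifitm2 on the same strand, had -5.08.

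Fam120b (ENSMUSG00000014763.7, chr17:15396246-15433580, plus strand) had no count in any KO-labelled morula and was at 6.29, 8.81 and 14.5 CPM in sibling blastocysts, 9.23 and 9.41 CPM in sibling morulae and 5.30, 4.67 and 4.04 CPM in Alyref-cross morulae. Against 3 counts per KO-labelled library it was at least 39.3-fold lower than in the blastocysts. The zinc-finger gene Zfp623 was at 0.0866, 0.465 and 0.785 CPM against 9.11, 6.43 and 14.7 CPM, Zfp119a at 0.173, 0 and 0.285 CPM against 4.31, 3.45 and 3.37 CPM and Zfp410, a regulator of the NuRD gene Chd4, at 16.5, 13.3 and 13.3 CPM against 52.7, 82.0 and 48.7 CPM. Faap20, of the Fanconi anaemia core complex, was at 3.64, 3.91 and 7.77 CPM against 36.9, 20.1 and 28.1 CPM. Mlx, a partner of the glucose-sensing factors ChREBP and MondoA, was at 13.4, 13.0 and 9.13 CPM against 58.8, 43.9 and 55.1 CPM. Exosc3, of the RNA exosome, was at 26.2, 39.8 and 19.8 CPM against 91.8, 80.4 and 69.6 CPM. In these genes every KO-labelled morula lay below every sibling blastocyst and every sibling morula.

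Top2b, a DNA topoisomerase, stood out through the Alyref cross. It was at 37.7, 23.3 and 32.1 CPM in KO-labelled morulae and 30.9, 22.1 and 30.3 CPM in sibling blastocysts, with overlapping groups, while the Alyref-cross morulae had 5.08, 6.36 and 11.3 CPM and their blastocysts 43.4, 43.0 and 30.8 CPM. The difference was 2.53 (SE 0.45, adjusted p = 0.0479), and 10 of the 12 omissions of 1 embryo removed the call. Lypla2, Lyrm2, Umps, Fam120b, Zfp623, Ifitm2 and Gm45717 kept their calls in this test whichever of the 12 embryos behind it was left out. The other 9 lost theirs in at least 1 omission, and 9 calls were lost without the third Alyref-cross blastocyst. With ERCC scaling 1 of the 16 was called, Fam120b.

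**Figure D5:**
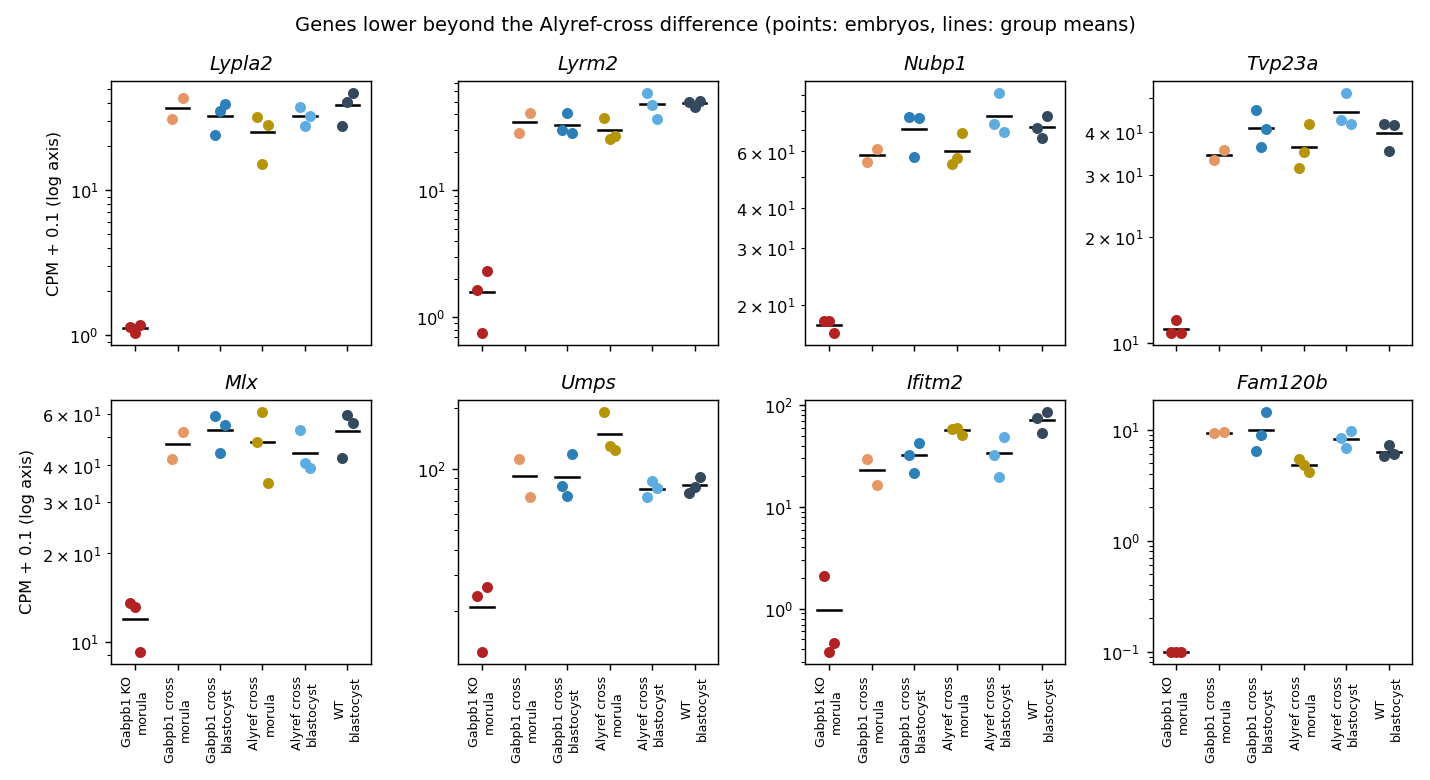
CPM of 8 genes in each embryo of 6 groups, on a log axis after adding 0.1, with group means as lines. The 3 KO-labelled morulae (leftmost, red) lie below all embryos of the other 5 groups shown for each gene, and for Fam120b they have no counts.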

How the data were processed

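RNA of single embryos with the zona pellucida removed was amplified from polyA RNA (16 PCR cycles) with ERCC spike-in added after lysis, and read as pairs of 50 and 25 bases, per the labels' protocols. The table holds raw counts per gene, deposited by the authors as whole numbers for 53379 genes and 92 ERCC rows, with gene lengths in bases also deposited. STAR, featureCounts, Trimmomatic, Trim Galore and cutadapt and the build mm10 are named in the submitters' processing notes. Versions, settings, strand and the handling of reads shared between copies are not given in the sources used here. The table's column headings carry the name of the cross, so groups were taken from the sample labels. For 50604 of the gene rows the identifier and coordinates match GENCODE M21 (GRCm38). Counting error is small for most named genes beside the spread between embryos, since each of the 19 embryos has 7.49 to 31.5 M gene counts. It is not small for genes with few counts, such as Fam120b, Zfp119a and Snora47.

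Genes with at least 1 FPKM (computed here from counts and lengths) in at least 2 of 19 embryos were tested, 18410 in all. The quasi-likelihood test of edgeR 4.0.16 (R 4.3.3) was fitted with TMM scaling to all 19 embryos in 7 groups, so that all groups share 1 estimate of the spread, and p-values were adjusted by Benjamini-Hochberg over all genes tested. The difference from the Alyref cross is a contrast of the same fit. Fitted fold changes use edgeR's prior count. Each SE was computed as the absolute log2 fold change over the square root of the F statistic of the quasi-likelihood test. For genes with hardly any counts in a group such an SE is a rough guide only. For genes at or under 3 counts in every library of a group a lower bound is printed where a fold is given. Some genes that the naming rule picked are not reported here. Alternatives were DESeq2 1.42.0, limma 3.58.1 on log2(FPKM + 1) and log2(FPKM + 0.1), voom with embryo weights, ERCC scaling, other filters, a Y-linked covariate, other reference blastocysts, the 6 embryos alone and each embryo left out. Sex of the embryos was not used as a group. RefSeq promoter windows were searched for CCGGAAGT without a chance test.

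Genes are named by a rule: called, groups separate, mean FPKM of 5 or more over the 6 embryos, no predicted genes, the 15 largest rises and 15 largest falls, plus up to 4 called members of each list (or the 3 most expressed members where none is called) and the genes of the difference test. Of the 16 genes of the difference test, 5 follow from the rule and the others are named because they are few. The comparison, its gene lists and tests were chosen with earlier results of these data known.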

Additional observations from a re-analysis of the deposited data

Results flagged for a closer look

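Each of these 16 genes was picked out because the morula-blastocyst difference of the KO-labelled embryos differed from that of the Alyref cross by the edgeR quasi-likelihood test of the difference itself (adjusted p under 0.05). The values are differences between the 2 log2 fold changes. They were -9.31 for Fam120b (fitted with no count in any KO-labelled morula, so its size depends on the prior count), -5.93 for Ifitm2, -5.82 for Gm45717, -5.37 for Zfp623 and -4.61 for Lypla2. They were -4.16 for Zfp119a, -3.77 for Lyrm2, -3.04 for Gm15829, -3.02 for Umps and -2.80 for Faap20. They were -2.27 for Mlx, -2.22 for Zfp410, -2.14 for Exosc3, -1.66 for Nubp1, -1.57 for Tvp23a and 2.53 for Top2b.

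Ifitm2 with Gm45717, Umps with Gm15829 and Nubp1 with Tvp23a are overlapping pairs whose reads may be shared, so the 16 rows are fewer than 16 separate loci. With ERCC scaling 1 of the 16, Fam120b, was called, and with a Y-linked covariate 8 were.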

How the results depend on the processing

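The 1643 calls kept their direction under all 19 alternatives, apart from 1 gene with ERCC scaling, 2 with WT blastocysts as the reference, and those not tested under the stricter filter (1175 were). The count of calls was 87 with ERCC scaling (68 higher, 19 lower, 78.2% higher against 44.3%), 2985 with DESeq2, 2880 with voom and embryo weights, 3230 against WT blastocysts and 4669 against all 9 blastocysts. Fitting the 6 embryos alone gave 13 calls without the replicate block and 0 with it, where 3744 genes had an unadjusted p under 0.05 in edgeR. Leaving out 1 embryo gave 364 to 2712 calls. Other settings gave 1143 to 2125.

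For the difference from the Alyref cross, 16 genes became 1 with ERCC scaling, 222 with DESeq2, 262 with voom and embryo weights and 8 with the Y-linked covariate, and 7 to 131 with 1 embryo left out, 131 without Alyref-cross morula 3. All 16 kept their direction wherever tested. Tead4 turned to 0.061 and Eif1a to 0.10 with ERCC scaling, and Gabpb2 to -0.25 against WT blastocysts. The gene to spike-in ratio difference of 0.26 ranged from -0.23 (without KO-labelled morula 1) to 0.76 with 1 embryo left out. The cause was not tested.

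Replicate numbers were not used as pairs in the main fit. Deviations of same-numbered embryos correlated at 0.20, 0.05 and 0.04. KO-labelled morulae 1 and 2 correlated best with the blastocyst of their own number, and KO-labelled morula 3 with blastocyst 2 (0.12). Results for single genes and medians of lists were counted together, and 2070 settings left them the same. For a gene that means the same call and direction. For a list it means a median within the SD of its leave-one-out medians, and 178 settings moved a list median further. For single genes, 540 settings lost a call, 33 gained one and 3 reversed the direction. The number of embryos, 2 or 3 a group and 1 a library, limits the precision, and a separate effect of depth was not tested.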

Other observations

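Imprinted genes include growth regulators expressed from 1 parental allele. Of 18 tested, 2 rose and none fell by edgeR's test, a share (11.1%) near the 8.92% of all genes, and DESeq2 called 3 lower. The median was -0.45, and -0.07 with ERCC scaling. Igf2r, which clears IGF2, was at 48.0, 54.9 and 31.0 CPM in KO-labelled morulae and 19.3, 21.4 and 12.7 CPM in blastocysts (log2 fold change 1.33, SE 0.28, adjusted p = 0.0135). Grb10, a growth-suppressing adaptor, was at 19.9, 5.96 and 9.42 CPM against 2.07, 1.91 and 2.05 CPM (log2 fold change 2.54, SE 0.64, adjusted p = 0.0259). In both genes the groups did not overlap, and the Alyref-cross differences were 0.01 for Igf2r and 0.05 for Grb10. Igf2r was not called without KO-labelled morula 2 or blastocyst 3 (adjusted p = 0.0548 to 0.0708). Grb10 was not called without KO-labelled morula 1 or blastocyst 1 or 2 or 3 (adjusted p = 0.0537 to 0.0968).

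Other lists without a call by edgeR's quasi-likelihood test were glycolysis, Hippo, apoptosis and DNA methylation, and neither of 2 tested sperm transcripts was called. Over all genes tested, 27.0% had an unadjusted p under 0.05 and DESeq2 called 2985 of 18410. Of 16 glucose uptake and glycolysis genes, 3 had an unadjusted p under 0.05 and DESeq2 called 2, 1 higher and 1 lower. Gapdh was at 303, 134 and 279 CPM in KO-labelled morulae and 572, 635 and 453 CPM in blastocysts (log2 fold change -1.21, SE 0.43, adjusted p = 0.0817), and the groups did not overlap. Of 18 Hippo pathway genes, 6 had an unadjusted p under 0.05 and DESeq2 called 2, both higher. Wwtr1, which encodes the TAZ coactivator, was at 143, 212 and 138 CPM against 104, 116 and 81.9 CPM (log2 fold change 0.71, SE 0.26, adjusted p = 0.0971). Of 18 apoptosis regulators, 6 had an unadjusted p under 0.05 and DESeq2 called 3, all lower. Bax, a pore-forming death effector, was at 98.4, 107 and 119 CPM against 95.4, 129 and 114 CPM (log2 fold change -0.06, SE 0.18, adjusted p = 0.865). Of 11 DNA methylation genes, 5 had an unadjusted p under 0.05 and DESeq2 called 5, 1 higher and 4 lower. Dnmt3l, a cofactor of de novo methylation, was at 57.2, 116 and 80.9 CPM against 84.9, 96.3 and 109 CPM (log2 fold change -0.19, SE 0.27, adjusted p = 0.675).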
